A study of Mus musculus with 29 samples.

Results

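Atoh1 binding sites that appeared only when Pou4f3 was co-expressed, at places where Pou4f3 itself had no peak in the absence of Atoh1, numbered 2137 of 78408 sites in the mouse genome. These Pou4f3-dependent Atoh1 sites without prior Pou4f3 (called members here) were chosen by the presence and absence of chromatin immunoprecipitation sequencing (ChIP-seq) peaks. Windows of 300 bp centred on the summits of 9 peak lists were joined where they shared at least 1 bp. A joined site was kept if it held an Atoh1 peak in both lines that express Atoh1 with Pou4f3, none in either line that expresses Atoh1 without Pou4f3, and no Pou4f3 peak in either line that expresses Pou4f3 without Atoh1. "Dependent" therefore describes peak calls, and the Atoh1 peaks of the 4 lines and the Pou4f3 peaks of those last 2 lines are not findings.

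The lists came from 17 ChIP and 12 input libraries. The cells were 6 lines of mouse embryonic stem cells derived from the A2loxCre parent, each with transgenes switched on by doxycycline. The lines carried Atoh1 alone (iAtoh1), Gfi1 and Atoh1 (iG+A), Pou4f3 and Atoh1 (iP+A), all of Gfi1, Pou4f3 and Atoh1 (iGPA), Pou4f3 alone (iPou4f3), or Gfi1 and Pou4f3 (iG+P), each in a cassette ending with the Venus reporter. Embryoid bodies of every line received 2 µg/ml doxycycline from day 4 for 48 h and were collected whole at day 6, so each list averages over the cells of an embryoid body, and forced expression stands in for the native factors. Atoh1 was precipitated by a FLAG tag, Pou4f3 by a MYC tag and Gfi1 by an antibody to the protein, so native Atoh1 and Pou4f3 were not captured. Each Atoh1 and Pou4f3 list was called on 2 merged libraries, described as separate clones, and the Gfi1 list on 1. With no replicate lists there is no spread between replicates, and each 95% interval below covers counting error over sites only. The files give no read totals, so the depth behind each list is unknown.

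Atoh1 is a basic helix-loop-helix transcription factor that binds E-boxes, short elements with the core CANNTG, as a dimer with an E protein, and it specifies mechanosensory hair cells as well as several kinds of neuron. Pou4f3 is a POU homeodomain factor that binds an AT-rich element and is needed for hair cells to survive, while its relatives Pou4f1 and Pou4f2 act in sensory neurons and retinal ganglion cells. Gfi1 is a zinc finger repressor that hair cells also need.

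Printed first are the bases around the Atoh1 summit in iGPA for the members with the tallest Atoh1 peaks, since they show which binding elements lie under the summit. Each run covers the summit base and 50 bases to either side on the plus strand of mm9, 5′ to 3′. Capitals mark the E-box hexamers CAGCTG and CAGATG (the latter on either strand) and the Pou4f pattern ATAATTAAT on either strand with up to 1 mismatch. The first 4 are the members ranked highest by the lower of their iP+A and iGPA Atoh1 fold enrichments, each named by its nearest annotated transcription start.
Nr2f2 site, chr7:77439849-77439949: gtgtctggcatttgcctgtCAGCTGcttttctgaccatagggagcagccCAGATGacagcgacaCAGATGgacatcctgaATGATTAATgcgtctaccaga
Sall1 site, chr8:91473622-91473722: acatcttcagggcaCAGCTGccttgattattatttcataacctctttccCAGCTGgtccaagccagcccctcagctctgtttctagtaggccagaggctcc
Nfia site, chr4:97547198-97547298: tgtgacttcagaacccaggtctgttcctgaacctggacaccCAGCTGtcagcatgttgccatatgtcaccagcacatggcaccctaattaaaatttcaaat
Irx2 site, chr13:72957981-72958081: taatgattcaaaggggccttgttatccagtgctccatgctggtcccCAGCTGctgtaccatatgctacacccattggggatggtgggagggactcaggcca

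The Nr2f2 site held both kinds of element. Its middle E-box, CAGATG, ran from 1 base before to 4 bases after the summit, and a Pou4f match began 30 bases after it. The other 3 sites each had a CAGCTG within 9 bases of the summit and no Pou4f match in the printed bases. A further pair of sites, both on chromosome 4, is shown as the highest ranked members whose 250 bp held the longer Atoh1 E-box of the AtEAM reporter together with the Pou4f pattern. In both, the Pou4f match lay outside the printed bases.
Gm12689 site, chr4:98991452-98991552: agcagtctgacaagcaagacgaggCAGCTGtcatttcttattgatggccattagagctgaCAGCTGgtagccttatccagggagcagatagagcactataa
Gm12695 site, chr4:96641817-96641917: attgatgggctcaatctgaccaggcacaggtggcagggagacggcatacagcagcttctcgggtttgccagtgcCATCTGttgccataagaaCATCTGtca

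Among sites with no Pou4f3 peak in iPou4f3 or iG+P, 2137 showed the iP+A and iGPA pattern, 2461 the mirror pattern with Gfi1 (Atoh1 in iG+A and iGPA only) and 3426 had Atoh1 in all 4 lines. The last pair of classes, called Gfi1-gained and core sites, serve as comparisons, since they carry the same exclusion of Pou4f3 peaks. A further 1405 sites had the members' Atoh1 pattern on top of a Pou4f3 peak in iPou4f3 or iG+P, and are called pre-bound. The members made up 11.6% of the 18445 sites with an iP+A Atoh1 peak (exact Clopper-Pearson 95% interval, 11.1 to 12.1%) and 8.37% of the 25541 sites with an iGPA Atoh1 peak (8.03 to 8.71%). The largest single pattern was Atoh1 in iGPA alone, with 7520 sites, and the 4 other patterns of exactly 2 lines held 469 to 719 sites each. The median iP+A Atoh1 fold of the members equalled that of all kept iP+A peaks, 3.12 against 3.12, and their iGPA median was 3.81 against 3.45.

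**Figure D1:**
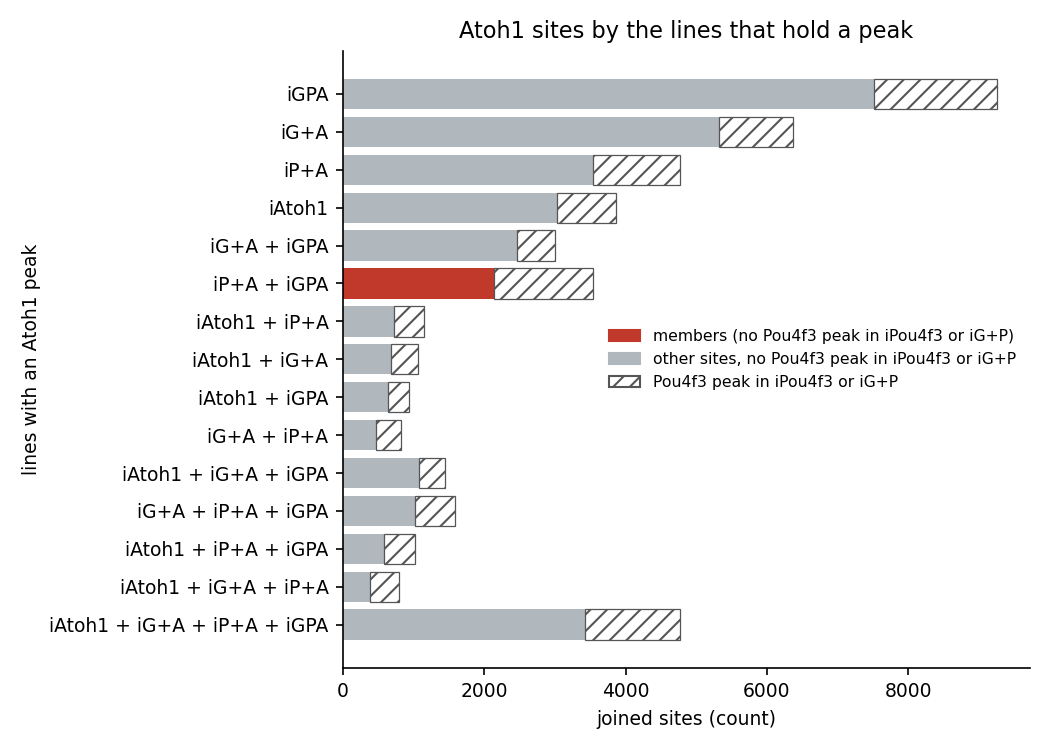
Number of joined sites (horizontal axis) for each set of lines that held an Atoh1 peak (vertical axis), split by whether Pou4f3 had a peak in iPou4f3 or iG+P. The 2137 members (red) stand beside 1405 pre-bound sites of the same Atoh1 pattern (hatched) and 2461 sites of the mirror pattern with Gfi1.

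Pou4f3 had a peak at part of the members when Atoh1 was co-expressed. A Pou4f3 peak in iP+A or iGPA lay at 763 of 2137 members, 35.7% (33.7 to 37.8%), against 8.91% of all 32992 Atoh1 sites without prior Pou4f3. Here and below, this background takes sites bound by Atoh1 in any of the 4 lines, the members among them. Of its sites, 12262 were bound by Atoh1 in iP+A and 18853 in iGPA, whereas the rule required both of every member. The part of this make-up in the differences from the background was not tested. The Pou4f3 share was 3.29% at Gfi1-gained sites and 9.40% at core sites. The members exceeded the Gfi1-gained sites by 32.4 percentage points (Newcombe 95% interval, 30.3 to 34.6) and the core sites by 26.3 points (24.1 to 28.6). Gfi1-gained sites were required to lack an Atoh1 peak in iP+A, a line whose Pou4f3 peaks are counted here. The part of this requirement in the difference was not tested. In iGPA, where both classes had an Atoh1 peak, Pou4f3 lay at 29.2% of members and 1.42% of Gfi1-gained sites. The excess over Gfi1-gained sites had the same sign on each of the 20 chromosomes that held members. All chromosomes share the same merged lists, so this is a description and no replication. By list, 422 members (19.7%) had the peak in iP+A and 623 (29.2%) in iGPA, and 282 (13.2%) had it in both. The share depended on the threshold, since requiring a −log10 p of at least 10 for presence left 544 members, of which 68.2% (64.1 to 72.1%) had a Pou4f3 peak. The remaining 1374 of the 2137 members had no Pou4f3 peak in any of the 4 Pou4f3 lists. Absence here means no kept peak in the merged libraries.

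Seen from Pou4f3, 695 sites had a Pou4f3 peak in both iP+A and iGPA and in neither iPou4f3 nor iG+P. Of these, 282 (40.6%) were members, and 476 (68.5%) had an Atoh1 peak in at least 1 line. At the members the median Pou4f3 fold was 3.06 in iP+A (lowest 2.38, highest 9.28) and 4.22 in iGPA (2.51 to 13.5). These were near the medians of all kept Pou4f3 peaks, 3.17 and 4.08. At the pre-bound sites the medians were 4.19 and 7.43. The pre-bound class was itself selected for Pou4f3 binding, so its taller peaks are given as a description only.

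Gfi1 peaks were uncommon at the members, but more frequent than at Gfi1-gained sites. They lay at 103 members, 4.82% (3.95 to 5.82%), against 2.60% of all Atoh1 sites without prior Pou4f3, 2.97% of Gfi1-gained sites and 9.14% of core sites. The members differed from Gfi1-gained sites by 1.85 points (0.737 to 3.01) and from core sites by -4.32 points (-5.62 to -2.96). The members with a Pou4f3 peak had a Gfi1 peak in 9.57% of cases and those without in 2.18%, a difference of 7.38 points (5.28 to 9.77). Members with a Pou4f3 peak also had taller iGPA Atoh1 peaks (median fold 4.80 against 3.57). The part of peak height in the Gfi1 share was not tested. The Gfi1 list rests on 1 library and holds 3012 kept peaks, fewer than any other list.

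**Figure D2:**
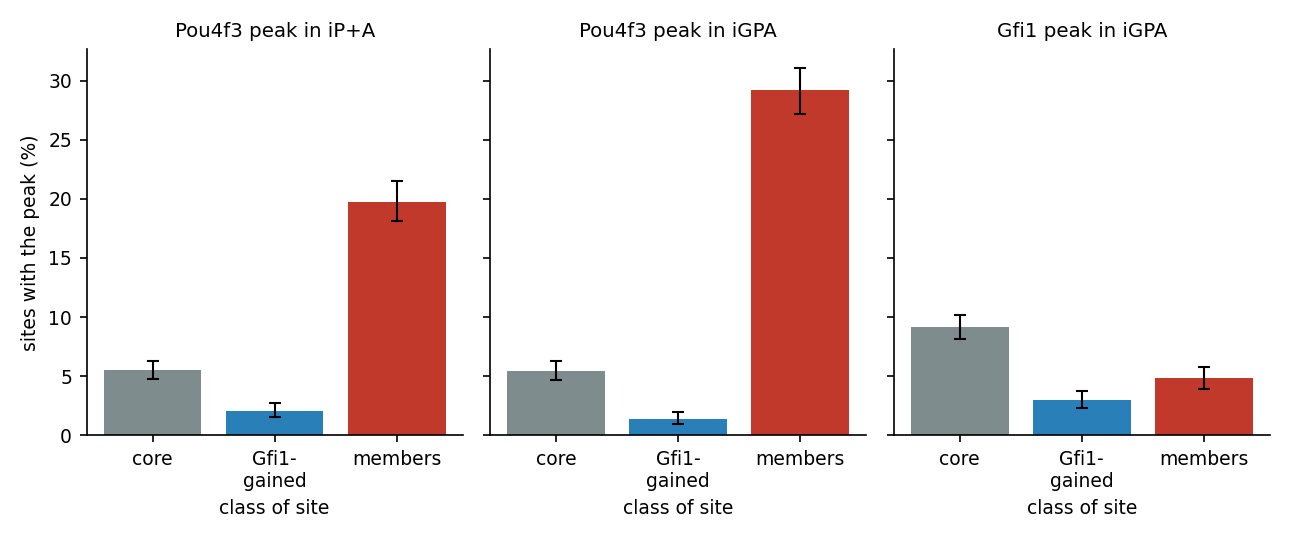
Share of sites (vertical axis, percent) with a Pou4f3 peak in iP+A, a Pou4f3 peak in iGPA and a Gfi1 peak in iGPA, for core sites, Gfi1-gained sites and members, all without a Pou4f3 peak in iPou4f3 or iG+P. Bars start at 0 and error bars are exact 95% intervals. The members stand above both classes for Pou4f3 (19.7% and 29.2%) and between them for Gfi1 (4.82%).

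The summits of the 2 factors lay close together. In iGPA, the Pou4f3 summit was a median of 24.0 bp from the Atoh1 summit over the 623 members with both peaks, and within 50 bp in 81.4% of them. In iP+A the median was 31.5 bp over 422 members. For scale, the Atoh1 summits of iP+A and iGPA were themselves a median of 24.0 bp apart at the 2137 members. That set also holds the members without a Pou4f3 peak, so the distances between factors and between lines cover unlike sets of sites. Joining windows of 300 bp limits how far apart these summits can lie.

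Members without a Pou4f3 peak had lower Atoh1 peaks. The median Atoh1 fold in iGPA was 4.80 at members with a Pou4f3 peak (lowest 2.25, highest 18.6) and 3.57 at those without (2.01 to 9.48). In iP+A the medians were 3.66 and 3.01. The ranges overlapped up to 9.48 in iGPA, and the members above that value all had a Pou4f3 peak. The members were also divided by their iGPA Atoh1 fold into 4 height groups of 498 to 552. The share with a Pou4f3 peak was 17.7% (14.4 to 21.3%) in the lowest group, 22.8% and 33.2% in the next pair and 67.0% (62.9 to 70.9%) in the highest. The part of peak height in the Pou4f3 share was not tested. Limiting both classes to an iGPA Atoh1 fold from 3 to 4, a limit set after seeing the data, left 23.2% of 826 members and 2.76% of 1123 Gfi1-gained sites with a Pou4f3 peak, a difference of 20.5 points (17.5 to 23.6). Within the 623 members with both peaks in iGPA, the Atoh1 and Pou4f3 folds had a rank correlation of 0.53, a description over sites that share the same libraries and input.

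The Atoh1 folds of the members in iP+A and iGPA ranged from 2.23 to 11.2 and from 2.01 to 18.6. They had a rank correlation of 0.44 over the 2137 members, and the iGPA value was the higher at 78.2% of them. Fold values of different lists depend on the depth of each, so this share is no measure of binding in iGPA against iP+A.

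**Figure D3:**
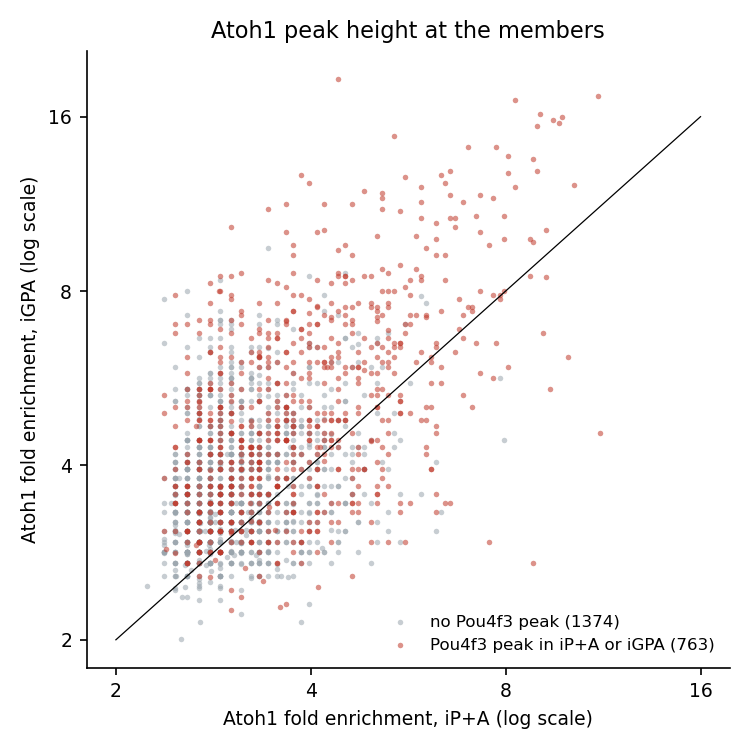
Atoh1 fold enrichment over local background in iP+A (horizontal axis) and iGPA (vertical axis), both on log scales, for the 2137 members, 1 point each, with the line of equality. The 763 members with a Pou4f3 peak (red) reach the highest values, up to 18.6 in iGPA, while the 1374 without (grey) stop at 9.48.

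The sequence under the members combined the E-boxes of Atoh1 sites with a moderate excess of the Pou4f element. In the 250 bp around the iGPA summit, CAGCTG or CAGATG occurred at 83.8% of members (82.2 to 85.3%), against 28.0% of windows of the same length centred 1000 bp to either side. The AtEAM E-box, a longer consensus, occurred at 23.0% of members (21.2 to 24.8%), against 1.90% in the flanks and 18.4% of all Atoh1 sites without prior Pou4f3. The Pou4f pattern occurred at 16.8% of members (15.2 to 18.5%), against 8.52% in the flanks and 6.03% of all Atoh1 sites without prior Pou4f3. Background sites without an iGPA Atoh1 peak were searched around their tallest Atoh1 summit of another line. A pattern match describes the letters only, and none was tested as a binding site.

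The Pou4f pattern separated the classes. It lay at 2.76% of Gfi1-gained sites, 2.04% of core sites and 36.4% of pre-bound sites. The members thus exceeded the Gfi1-gained sites by 14.0 points (12.3 to 15.8) and fell short of the pre-bound sites by 19.6 points (16.7 to 22.6). The rule chose pre-bound sites for a prior Pou4f3 peak and members for lacking it, so this shortfall is given as a description only. Gfi1-gained and core sites were below their own flanks, at 7.84% and 7.40%. Base composition moved with this result. The median GC content of the 250 bp was 49.6% at members, 48.8% at pre-bound, 52.8% at Gfi1-gained and 56.0% at core sites. Within sites of 45 to 55% GC, a limit chosen after seeing the data, the Pou4f pattern lay at 16.0% of 1004 members, 2.68% of 1195 Gfi1-gained, 2.70% of 1294 core and 44.5% of 559 pre-bound sites, and the member excess over Gfi1-gained sites was 13.4 points (11.0 to 15.9). With no mismatch allowed, ATAATTAAT was rare, at 1.36% of members, 4.06% of pre-bound sites and none of the 2461 Gfi1-gained sites, whose exact 95% interval reaches 0.150%.

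The Pou4f pattern was more frequent at members with a Pou4f3 peak. The pattern lay at 28.6% of members that had one (25.4 to 31.9%, flanks 9.44%) and 10.3% of members that had none (8.71 to 12.0%, flanks 8.01%), a difference of 18.3 points (14.8 to 21.9). Where it occurred, the nearest Pou4f match lay a median of 31.5 bp from the summit at members with a Pou4f3 peak, 42.5 bp at members without and 67.5 bp at Gfi1-gained sites.

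**Figure D4:**
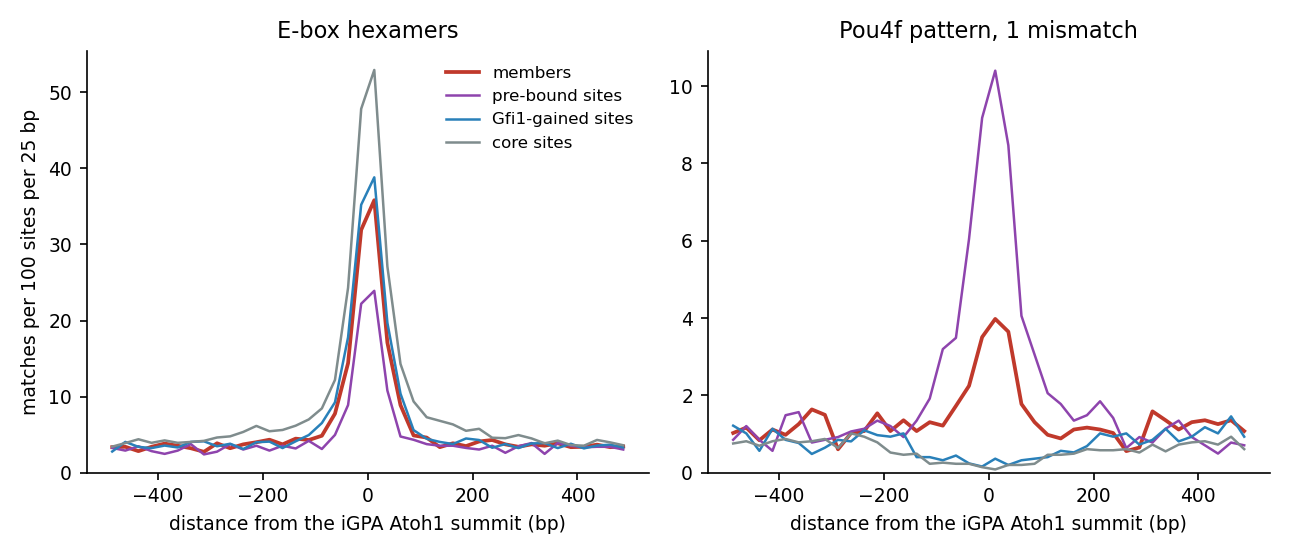
Matches per 100 sites in bins of 25 bp (vertical axis) by distance from the iGPA Atoh1 summit (horizontal axis, bp), for E-box hexamers (left) and the Pou4f pattern with up to 1 mismatch (right) in the 4 classes. At the summit bins the members have 31.9 and 35.8 E-box hexamers per 100 sites, below core sites. They have 3.51 and 3.98 Pou4f matches per 100 sites, between pre-bound sites (9.18 and 10.4) and the other classes (all under 1).

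E-boxes were frequent at members with and without a Pou4f3 peak. Either hexamer lay at 86.8% and 82.2% of them, a difference of 4.59 points (1.36 to 7.66), and the AtEAM E-box at 22.4% and 23.3%, a difference of -0.878 points whose interval, -4.52 to 2.89, holds 0. Gfi1-gained sites held them at 82.7% and 24.9%, and both intervals of the difference from the members held 0, with values of 1.08 points (-1.09 to 3.23) and -1.93 points (-4.39 to 0.545). They had fewer than core sites, where 92.9% held a hexamer and 30.5% the AtEAM E-box, and more than pre-bound sites, at 65.7% and 11.2%. The AtEAM shortfall against core sites was 7.53 points on the whole table, with an interval of -9.86 to -5.15, but within an iGPA fold from 3 to 4 the interval held 0 (-9.05 to 0.619).

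The 2 hexamers did not move alike. CAGCTG lay at 51.1% of members, 57.7% of Gfi1-gained and 70.5% of core sites, and CAGATG at 52.7%, 49.0% and 54.9%. The members were thus lower than Gfi1-gained sites in CAGCTG by 6.69 points, with an interval of -9.56 to -3.80, and higher in CAGATG by 3.77 points (0.876 to 6.66). A Pou4f3 peak went with the same shift, since CAGCTG lay at 46.8% of members with one and 53.4% of members without, and CAGATG at 57.4% and 50.1%. The median GC content was 46.4% at members with a Pou4f3 peak and 51.6% at those without. The part of base composition in these hexamer shifts was not tested. Members with 2 or more hexamers in the window made up 37.2%, against 19.9% of pre-bound, 47.1% of Gfi1-gained and 61.5% of core sites. Of all hexamers joined with their reverse complements, CAGCTG (51.1% in the window and 11.8% in the flanks) and CAGATG (52.7% and 18.4%) were the most enriched over flanks at members. None of the first 10 was made of A and T alone. Ranked by members minus Gfi1-gained sites, the first was ATAAAT, at 22.0% of members, 7.88% of Gfi1-gained sites and 19.7% of the members' flanks. The third was AATAAT, at 19.4%, 6.10% and 14.7%.

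Both elements occurred in the same window at 326 members, 15.3% (13.8 to 16.9%), taking either hexamer with the Pou4f pattern. The share was 26.1% with a Pou4f3 peak, 9.24% without, 2.23% at Gfi1-gained and 27.8% at pre-bound sites, and 4.07% over all Atoh1 sites without prior Pou4f3. The 2 elements lay a median of 31.5 bp apart, centre to centre, and 36.8% were within 25 bp. At 14.6% of members neither was present, against 28.5% of all Atoh1 sites without prior Pou4f3.

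Of 17 other patterns searched, members had more than Gfi1-gained sites in 3, fewer in 3, and an interval holding 0 in 11. The 3 that were more frequent were the homeobox core TAATTA (10.8% against 6.46%), the Ebf pattern (2.20% against 1.18%) and the octamer ATGCAAAT (1.82% against 1.06%). Over all Atoh1 sites without prior Pou4f3 they lay at 5.93%, 1.34% and 1.44%, and the octamer share of the members (1.30 to 2.49%) was near this background and near their flanks (1.40%). Ebf factors are helix-loop-helix proteins of developing neurons. The Ebf pattern was in 0.398% of the members' flanks and in 0.712% of pre-bound sites, and it lay at 1.83% of members with a Pou4f3 peak and 2.40% without, a difference of -0.567 points (-1.77 to 0.834). The 3 that were less frequent were TGACAG of Meis factors (26.3% against 31.0%), CAGCAGG of Zic factors (14.8% against 19.4%) and CCGCCC of Klf and Sp factors (13.1% against 16.5%). Their shares over all Atoh1 sites without prior Pou4f3 were 26.0%, 15.0% and 15.1%, so the members were near the background for Meis and Zic, and the Gfi1-gained sites were above it. TAATTA is contained in the Pou4f pattern. The Gfi1 pattern, AATCACAGC or AATCACTGC, lay at 0.374% of members and 0.702% of their flanks. In all, 160 differences of shares were computed and 95 of their intervals left out 0. The intervals are not adjusted for this number.

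The promoter share of the members was near that of all Atoh1 sites without prior Pou4f3. Within 1 kb of an annotated transcription start were 384 members, 18.0% (16.4 to 19.7%), and the share of all such sites, 19.5%, lay inside this interval. With a −log10 p of at least 10 for presence the member share was 6.43% (4.52 to 8.83%). The share was 24.5% at pre-bound, 21.5% at Gfi1-gained and 23.4% at core sites, and the members minus Gfi1-gained sites gave -3.49 points (-5.77 to -1.18). The median distance to a start was 13600 bp, against 10634, 9520 and 8060 bp, and 23.8% of members (22.0 to 25.6%) were over 50 kb away, against 17.8% of all Atoh1 sites without prior Pou4f3. Outside promoters, 37.8% of members had their summit in an intron, 41.3% between genes, 1.26% in a coding exon and 1.03% in an untranslated region. The Pou4f3 peak split the members here as well. Of those with a peak, 8.91% were at promoters and 31.5% over 50 kb from a start, and of those without, 23.0% and 19.5%. The promoter difference was -14.1 points (-17.0 to -11.0). Promoter members were also the lower peaks, at 27.1% of the lowest height group and 7.61% of the highest.

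**Figure D5:**
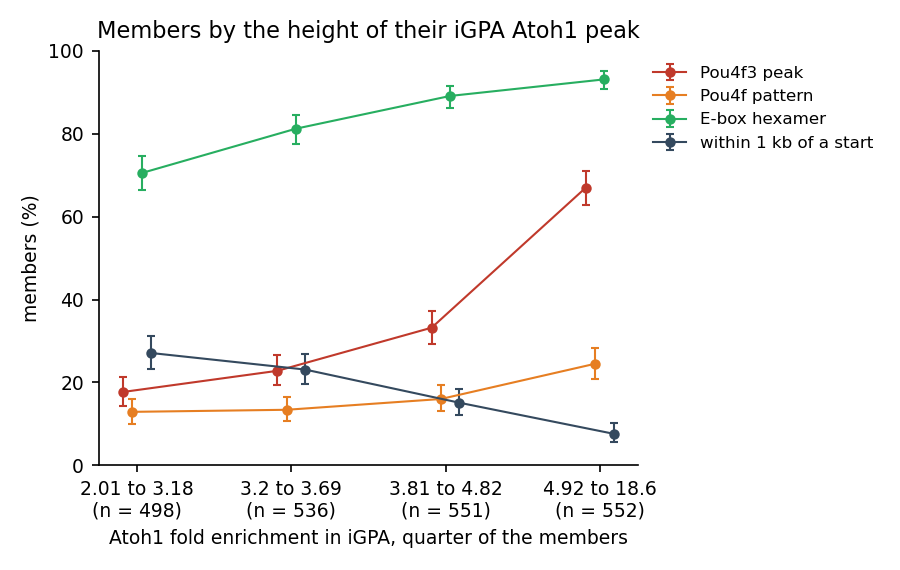
Share of members (vertical axis, percent, with exact 95% intervals) that held a Pou4f3 peak in iP+A or iGPA, the Pou4f pattern, an E-box hexamer or a transcription start within 1 kb, by height group of the iGPA Atoh1 fold (horizontal axis). From the lowest to the highest group the Pou4f3 share goes from 17.7% to 67.0% and the promoter share from 27.1% to 7.61%.

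Nearness to a prior Pou4f3 peak was not shown to differ between members and Gfi1-gained sites, and was slightly greater at members than at core sites. A Pou4f3 peak of iPou4f3 or iG+P lay within 10000 bp of 41.1% of members and 41.0% of Gfi1-gained sites, a difference of 0.173 points (-2.67 to 3.02), and within 1000 bp of 11.7% and 10.5%, a difference of 1.22 points (-0.597 to 3.06). Against core sites the members were higher within 1000 bp, where core sites had 8.84%, by 2.90 points (1.27 to 4.60), and within 5000 bp by 2.62 points (0.234 to 5.04), while the interval within 10000 bp held 0 (-0.506 to 4.79). The median distance was 15490 bp for members, 14531 bp for Gfi1-gained and 16005 bp for core sites. The rule used these Pou4f3 lists and removed sites joined to their peaks from each class. The shortest distances are therefore cut off, and the values are descriptions.

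The members were spread over 1899 nearest genes, of which 1695 had 1 member and 29 had 3 or more. On the autosomes there were 0.676 to 1.17 members per Mb and on the X chromosome 0.132. The 8 highest members by rank, chromosomes 18 and Y left out, all had Pou4f3 peaks in both iP+A and iGPA, and 1 of them lay at a promoter. The first, at chr7:77439749-77440064, was between genes, 65580 bp downstream of the start of Nr2f2, which encodes the orphan nuclear receptor COUP-TFII. Its Atoh1 fold was 11.1 in iP+A and 17.4 in iGPA, and its Pou4f3 fold 5.21 and 10.2. The second, at chr8:91473496-91473836, was 94389 bp downstream of the start of Sall1, a zinc finger transcription factor. There the Atoh1 folds were 10.2 and 12.2 and the Pou4f3 folds 3.85 and 5.24. The third lay 438 bp downstream of a start of Nfia, a nuclear factor I gene of neural and glial development, at chr4:97547090-97547423, with Atoh1 folds of 9.79 and 16.0 and Pou4f3 folds of 3.40 and 5.97. The fourth was 187986 bp from Irx2, an Iroquois homeobox gene, with 9.68 and 15.6 for Atoh1 and 3.28 and 5.53 for Pou4f3. In each of these 4 the Atoh1 fold was higher than the Pou4f3 fold in the same line. The ranking was by Atoh1 fold and the lists used different antibodies, so this is no finding. Over the 623 members with both peaks in iGPA, the Pou4f3 fold was the higher at 29.7%.

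Of the other 4, the site nearest to Gm9866 also had a Gfi1 peak with a fold of 10.3, and its Pou4f3 fold was 4.08 in iP+A and 12.7 in iGPA, beside Atoh1 folds of 9.47 and 15.8. The site nearest to Gk2 had Atoh1 folds of 9.25 and 10.2 and Pou4f3 folds of 5.55 and 10.9. A site within an intron of Aoah had 9.04 and 16.2 for Atoh1 and 4.98 and 12.4 for Pou4f3, and held both CAGATG and the Pou4f pattern. The eighth, 118227 bp downstream of the start of Nrg1, which encodes the growth factor neuregulin 1, had 8.93 and 12.9 for Atoh1 and 3.06 and 5.53 for Pou4f3. Only the Nr2f2 and Aoah sites among these 8 held the Pou4f pattern. The next members with a Gfi1 peak were nearest to Fam124b (Gfi1 fold 10.8), in an intron of Dach1, a nuclear cofactor gene (6.16), and in an intron of Fam168a (6.59), and all 3 had Pou4f3 peaks in both lines.

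Several genes were nearest to 3 or more members, and clustering was not tested. Id2, an inhibitor of helix-loop-helix dimers such as that of Atoh1 with E proteins, had 5 members from 1220 to 260307 bp upstream of its start, among 14 Atoh1 sites without prior Pou4f3 nearest to it. The nearest of the 5, at chr12:25782027-25782527, had Atoh1 folds of 4.41 and 6.52, Pou4f3 folds of 3.51 and 4.37 and a Gfi1 fold of 4.18. Pou4f3 lay at 2 of the 5. Plxna2, a semaphorin co-receptor gene of axon guidance, had 4 members among 10 Atoh1 sites without prior Pou4f3. These 4 lay between 311054 bp upstream and 2989 bp downstream of its start, and 2 had a Pou4f3 peak in iGPA (folds 5.68 and 4.81). Mecom, Gm5265 and Shisa9 had 3 each, each with Pou4f3 peaks at 2, among 9, 3 and 5 Atoh1 sites without prior Pou4f3. They were taken by rank from 26 genes with 3 members. Mecom encodes a zinc finger factor, and its intronic member had Atoh1 folds of 7.10 and 7.38 beside Pou4f3 folds of 4.53 and 6.70. Gm371 on the X chromosome also had 5 members, among 22 Atoh1 sites without prior Pou4f3. These members had Atoh1 folds of 2.61 to 2.90 in iP+A and 2.64 to 3.45 in iGPA. In 5 of 5, the authors had removed a called peak in at least 1 of the lists where no peak is allowed.

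Lists of hair cell, neuronal and other genes were set beside the nearest genes, of which 211 of 212 symbols matched the annotation. No list held more than 0.655% of the members, and few genes were involved, so the counts are descriptions. Of 37 genes of hair cell structure and function, 7 were nearest to at least 1 member (9 members, 0.421%, 0.193 to 0.798%). The share of all Atoh1 sites without prior Pou4f3, 0.209%, lay inside this interval. Whrn, the gene of the stereocilium scaffold protein whirlin, had an intronic member at chr4:63140356-63140747 with Atoh1 folds of 7.31 and 8.00, Pou4f3 folds of 3.28 and 4.22 and a Gfi1 fold of 6.60. A member 32429 bp downstream of the start of Calb2, which encodes the calcium buffer calretinin, had Atoh1 folds of 6.24 and 9.23, Pou4f3 folds of 4.87 and 3.50 and a Gfi1 fold of 5.94. Both sites held CAGATG and the Pou4f pattern. Cdh23, the gene of the tip-link protein cadherin 23, had 3 members, and the tallest, within an intron, had Atoh1 folds of 4.95 and 7.63 and a Pou4f3 peak in iGPA only (5.53). Of 18 hair cell regulators, only Atoh1 itself was nearest to a member (0.0468% of members, against 0.0940% of all Atoh1 sites without prior Pou4f3). This site was 70385 bp downstream of its start, with Atoh1 folds of 2.69 and 3.45 and no Pou4f3 peak.

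Among 29 neuronal regulators, Myt1, Ebf3, Barhl2 and Lhx9 each had 1 member (0.187%, against 0.167%). Myt1, a zinc finger factor of neuronal differentiation, had it 690 bp downstream of a start, with Atoh1 folds of 4.63 and 11.3 and Pou4f3 folds of 4.14 and 9.76. The Ebf3 and Lhx9 sites, 11482 and 94353 bp downstream of the starts, had no Pou4f3 peak. That of Barhl2, 81407 bp downstream, had a Pou4f3 peak in iP+A (2.72). Of 25 genes of neuronal structure, 5 had members (0.281% of members, 0.103 to 0.610%, an interval that holds the background of 0.161%). Those of Cntnap2, Tubb3, Mtap2 and Mapt had Atoh1 folds of 2.58 to 3.23 in iP+A and 2.71 to 4.92 in iGPA, and none had a Pou4f3 peak. Of 23 matched sensory neuron genes, 4 had a member (0.187%, against 0.133%), and 2 of these members had a Pou4f3 peak. The member nearest to Gfra2, a co-receptor of neurotrophic factors, lay 584055 bp downstream of its start. This member had Atoh1 folds of 3.44 and 6.65 and a Pou4f3 fold of 5.83 in iGPA. The members nearest to Tac1 (224456 bp upstream) and Pou4f1 (8238 bp downstream) had no Pou4f3 peak.

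Axon guidance was the list with the most members, 9 of its 39 genes and 14 members (0.655%, 0.359 to 1.10%, against 0.385% of all Atoh1 sites without prior Pou4f3 and 0.569% of Gfi1-gained sites). Its tallest lay in an intron of Ephb2, an ephrin receptor gene, at chr4:136294254-136294570, with Atoh1 folds of 9.14 and 6.77 and Pou4f3 folds of 5.09 and 6.41. Dab1, an adaptor of reelin signalling, had an intronic member with Atoh1 folds of 4.95 and 3.45 and no Pou4f3 peak. The Notch list had 3 members (0.140%, against 0.191%), among them 1 at 4749 bp upstream of the start of the ligand gene Dll1 (Atoh1 folds 3.23 and 4.55) and 1 at the promoter of the ligand gene Jag1 (2.69 and 2.95, with a Pou4f3 fold of 2.83 in iP+A). The pluripotency and early lineage list had 1 (0.0468%, against 0.0818%), at the promoter of Tbx3 (2.69 and 4.06), with a Gfi1 fold of 3.30.

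At the limits of the rule, the lowest −log10 q of a member was 1.51 in iP+A, at a site near Tmcc2 with a fold of 2.37. In iGPA the lowest was at a site near Acer2 with a fold of 2.22. The nearest kept Atoh1 peak of iAtoh1 or iG+A to a member was 301 bp from its summit and the nearest kept Pou4f3 peak of iPou4f3 or iG+P 311 bp. Just outside the rule, 190 sites failed only because the authors removed their iP+A Atoh1 peak (median fold 2.69, against 3.12 at members) and 87 because they removed the iGPA peak (2.67, against 3.81).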

How the data were processed

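The authors trimmed reads with Trimmomatic, aligned them to mm9 with Bowtie2, removed duplicates with Picard and called peaks with MACS2 on merged ChIP against merged input replicates (versions are not given in the sources used here). The deposited peak tables give fold enrichment over local background, a ratio, with −log10 p and, as a further score, −log10 q values per called peak. The deposited summit lists leave out 14.1 to 35.5% of the called peaks by a filter not given in the sources used here, and kept peaks were used. No counts or read depths were used.

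From these, 300 bp summit windows of the 9 lists were joined and classed. Patterns were searched on both strands in 250 bp of mm9 around the highest iGPA Atoh1 summit, and positions come from GENCODE vM1. For background sites without an iGPA Atoh1 peak, the Atoh1 summit with the highest fold in another line was used. Multi-copy genes were counted by locus. Shares have exact Clopper-Pearson intervals (scipy 1.17.1) and differences Newcombe intervals (statsmodels 0.14.6). Scripts were tested on simulated data.

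Named sites were the first 8 by the lower of the 2 Atoh1 folds, the first 4 with Pou4f3 in both lines, the first 4 with Gfi1, the first 2 with the AtEAM E-box and the Pou4f pattern, the first of up to 4 genes per list, and those of the 6 genes with most members, chromosomes 18 and Y left out. One site named by this rule is not reported here. The members and lists were chosen with earlier results of these data known. Alternatives included other windows, thresholds, peak sets and patterns.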

Additional observations from a re-analysis of the deposited data

Results flagged for a closer look

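Called peaks that the authors left out of their summit lists were not used to choose the members, and some lay at members in the lists where no peak is allowed. A removed Atoh1 peak of iAtoh1 or iG+A lay at 121 of 2137 members, 5.66% (exact 95% interval, 4.72 to 6.73%). A removed Pou4f3 peak of iPou4f3 or iG+P lay at 103 members, 4.82% (3.95 to 5.82%). Together they touched 180 members, 8.42% (7.28 to 9.68%). By list the shares were 3.32% for iAtoh1 Atoh1, 3.74% for iG+A Atoh1, 1.78% for iPou4f3 Pou4f3 and 3.18% for iG+P Pou4f3. For comparison, a removed iAtoh1 Atoh1 peak lay at 5.32% of Gfi1-gained sites.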

How the results depend on the processing

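No paired analysis was possible because each peak list was called on merged replicates, which also leaves no replicate to omit. Of 49 differences between classes recomputed under the alternatives, 48 kept their sign and an interval that left out 0. The exception was the AtEAM E-box at members minus core sites within an iGPA Atoh1 fold from 3 to 4, at -4.14 points (-9.05 to 0.619). Members minus Gfi1-gained sites ranged from 20.5 to 64.1 points for Pou4f3 peaks and from 1.36 to 20.0 points for the Pou4f pattern. Requiring −log10 p of at least 10 for presence left 544 members, with a Pou4f3 peak at 68.2%, the Pou4f pattern at 22.8%, the AtEAM E-box at 27% and a promoter at 6.43%. Atoh1 lists cut to equal length (15568 peaks) left 1415 members, with 44.0%, 18.6%, 25% and 15.2% for the same measures. Windows of 100 bp gave a Pou4f3 share of 32.9%. Windows of 1000 bp gave 38.1%, with 13.5% at promoters. Using all called peaks for absence gave 16.2% at promoters, and a limit of 5 kb gave 33.0%. The Pou4f share was 1.36% with no mismatch, 6.41% for a pattern of 7 bases, 10.2% in 100 bp around the summit and 10.3% at members with no Pou4f3 peak in any list. The E-box share was 20.0% in 100 bp and 83.8% for the hexamers. Both of the following were chosen after seeing the data. Sites of 45 to 55% GC gave 26.6% for the AtEAM E-box and 7.67% at promoters. A fold from 3 to 4 gave 23.2% for Pou4f3 peaks, 14.9% for the Pou4f pattern and 22.4% at promoters. The cause of these shifts was not tested. Unknown depth limits what a missing peak means.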
